A study of Mus musculus with 5 samples.

Results

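The genes described here are Nfe2l2, which encodes the transcription factor NRF2, its inhibitor Keap1, and 8 antioxidant genes known as NRF2 targets: Nqo1, Gclc, Gclm, Hmox1, Txnrd1, Srxn1, Cbr3 and Osgin1. They were chosen by name, with earlier results of these data known. Their probes were found through the transcript accession listed for each spot. This gave 10 genes of the 19752 that could be named on the array. They were read by 11 probes, of which 2 belonged to Hmox1, and all 11 were well above background in both channels of all 5 arrays. Liver RNA was compared between Fra-1hep mice, which overexpress Fra-1 in hepatocytes, and wild-type mice, both C57BL/6J. From the age of 4 weeks both received food with 45% of its energy as fat, and they were 26 to 28 weeks of age at the time of study. RNA of each of 4 Fra-1hep mice, in the red dye Cy5, shared an array with RNA pooled from 5 controls, in the green dye Cy3, and the fifth array carried pooled Fra-1hep RNA in Cy3 against the control pool in Cy5. Neither the mice behind the pooled Fra-1hep RNA nor the promoter that drives Fra-1 is given in the sources used here, so the swapped array may add no animals. The single control pool counts as 1 control sample, which leaves the spread among control mice out of the tests.

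NRF2 switches on genes that protect cells from oxidants and reactive chemicals. In resting cells KEAP1 presents NRF2 to the CUL3 ubiquitin ligase, which leads to its breakdown, and oxidants that modify KEAP1 let NRF2 escape, pair with a small MAF protein and bind antioxidant response elements. In liver its targets make glutathione, reduce quinones and carbonyls, recycle thioredoxin and break down haem. Fra-1 is a subunit of the transcription factor AP-1, whose binding site shares letters with the antioxidant response element.

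The promoter windows are shown first because the response element and the AP-1 site are the sequences through which these factors are known to act. RefSeq windows of GRCm38.p6, from 250 bases before to 50 bases after a gene start, were matched for 8 of the 10 genes, Gclc and Hmox1 being the exceptions. The element was searched as TGACNNNGC and the AP-1 site as TGACTCA, each on both strands, and the same TGAC can serve in a match of either. Of all 32841 windows, 12.4% held the element and 5.2% the AP-1 letters. The element was found in 4 of the 8 genes, and in 4 of their 10 windows. Its leftmost base on the gene's strand, counted from the start, was at -240 in Nfe2l2 and -134 in Gclm. It was at -92 in 1 of 3 Txnrd1 windows and at 29 in Srxn1. The matches in Gclm, Txnrd1 and Srxn1 lie on the opposite strand. The AP-1 letters were found in 2 of the 8 genes, at -102 and -45 in Srxn1 and at -97 in Osgin1. Cbr3, Nqo1 and Keap1 held neither in these windows, and sequence farther from the start was not searched. Printed below are the gene with the largest fall, the gene of NRF2 itself, a glutathione gene with the element, and the gene with both motifs. Each shows the 250 bases before the start, 5′ to 3′ on the gene's strand. Capitals mark the element in Nfe2l2 and Gclm and the AP-1 letters in Srxn1, whose element lies after the start. The windows are chr16:93682969-93683218 (plus strand) for Cbr3, chr2:75704664-75704913 (minus strand) for Nfe2l2, chr3:122245307-122245556 (plus strand) for Gclm and chr2:152105274-152105523 (plus strand) for Srxn1.
Cbr3: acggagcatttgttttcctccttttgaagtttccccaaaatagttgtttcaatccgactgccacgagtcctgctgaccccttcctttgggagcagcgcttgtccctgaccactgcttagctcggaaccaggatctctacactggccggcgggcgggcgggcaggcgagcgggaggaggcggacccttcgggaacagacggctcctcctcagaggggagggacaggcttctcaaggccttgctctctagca
Nfe2l2: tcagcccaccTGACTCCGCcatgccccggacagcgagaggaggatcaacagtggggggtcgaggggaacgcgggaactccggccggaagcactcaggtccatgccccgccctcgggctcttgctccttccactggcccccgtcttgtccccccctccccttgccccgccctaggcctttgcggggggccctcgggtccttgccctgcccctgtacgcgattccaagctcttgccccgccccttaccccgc
Gclm: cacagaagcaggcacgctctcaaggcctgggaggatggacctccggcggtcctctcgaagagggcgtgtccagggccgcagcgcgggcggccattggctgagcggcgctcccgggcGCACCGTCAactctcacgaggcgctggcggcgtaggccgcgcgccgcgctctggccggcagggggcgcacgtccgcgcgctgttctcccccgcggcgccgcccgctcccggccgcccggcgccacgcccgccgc
Srxn1: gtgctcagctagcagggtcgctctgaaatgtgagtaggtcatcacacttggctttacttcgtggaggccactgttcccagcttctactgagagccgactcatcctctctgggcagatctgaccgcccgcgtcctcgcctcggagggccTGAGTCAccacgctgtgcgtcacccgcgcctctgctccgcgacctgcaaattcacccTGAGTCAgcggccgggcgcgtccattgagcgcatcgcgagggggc
In Srxn1 the AP-1 letters at -45 are followed by gc, and only elements with C as the fourth letter were counted. A match describes letters in a window and is not a measured binding site.

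In Fra-1hep liver, 4 of the 8 targets fell (Cbr3, Gclc, Hmox1 and Nqo1), none rose, and Gclm, Txnrd1, Srxn1 and Osgin1 did not pass the test. Cbr3 had the largest change of the 10, and fell by 2.18 on the log2 scale, or 4.53-fold. Nfe2l2 and Keap1 were called lower too, each mainly through a different dye orientation. Values are log2 ratios of Fra-1hep over control, and changes are coefficients from a limma fit to the 5 arrays with a dye term, given with the standard error (SE). In that fit the swapped array weighs as much as the 4 mice together. It has no repeat, so the residual spread behind each SE and p, the dye effect included, comes from the 4 mice alone. A gene was called at a Benjamini-Hochberg adjusted p under 0.05 over 21494 features, of which 26.6% were called, 15.4% lower and 11.2% higher. Among named genes alone 18.5% were called lower. The median was -0.31 for the 8 targets and -0.00 for all features. Of the 10 genes 6 were below 0 on all 5 arrays (Cbr3, Gclc, Hmox1, Nqo1, Keap1 and Txnrd1), as were 19.5% of all features.

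**Figure D1:**
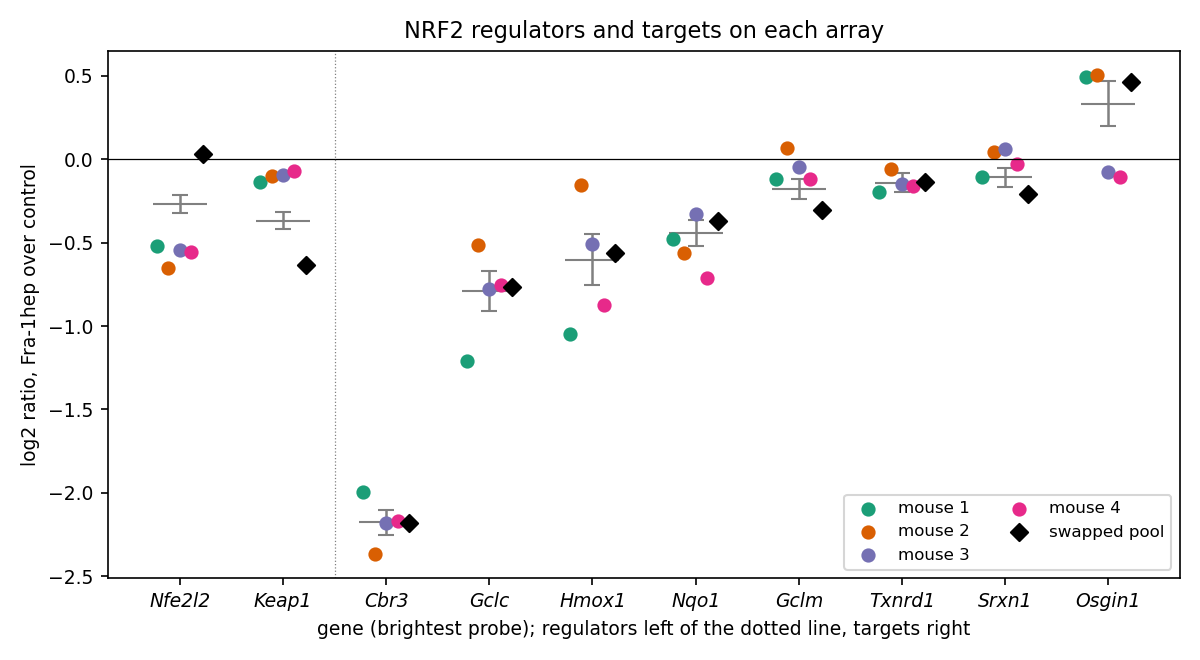
Log2 ratio of Fra-1hep over control (y axis) for each of the 10 genes (x axis) in the 4 mice (circles) and the swapped pool (diamond), with the genotype coefficient ± SE in grey. Cbr3 lies between -2.37 and -1.99 on every array, while the diamond stands apart from the mice for Nfe2l2 and Keap1.

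Nfe2l2, the gene of NRF2, gave -0.52, -0.65, -0.54 and -0.56 in mice 1 to 4, and the swapped pool gave 0.03. The mice were low together, at -0.57 ± 0.06 (SD, n = 4), and the pool was level with its control. In the joint fit Nfe2l2 fell by 0.27 (SE 0.05, adjusted p = 0.0137), with a dye effect of -0.30 (SE 0.05, adjusted p = 0.0319). Over the mice alone it was -0.57 (limma adjusted p = 0.000321, where 19.0% of features were called lower). The call ended when the SE was enlarged for the spread a pool of control mice would add (adjusted p = 0.0506, where 8.19% were called lower).

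Keap1, which encodes the protein that holds NRF2 back, had the opposite arrangement. It gave -0.14, -0.10, -0.09 and -0.07 in mice 1 to 4, and the swapped pool gave -0.64. Every array was below 0, with the pool far below the mice. In the joint fit Keap1 fell by 0.37 (SE 0.05, adjusted p = 0.00338), with a dye effect of 0.27 (SE 0.05, adjusted p = 0.0381). It did not pass over the mice alone (-0.10, limma adjusted p = 0.134) or without a dye term (-0.21, adjusted p = 0.119). The dye effect passed for 4.15% of all features and, of these 10 genes, for Nfe2l2 and Keap1. A dye bias of a probe and a difference of the pooled RNA cannot be told apart, because only the pool was swapped.

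**Figure D2:**
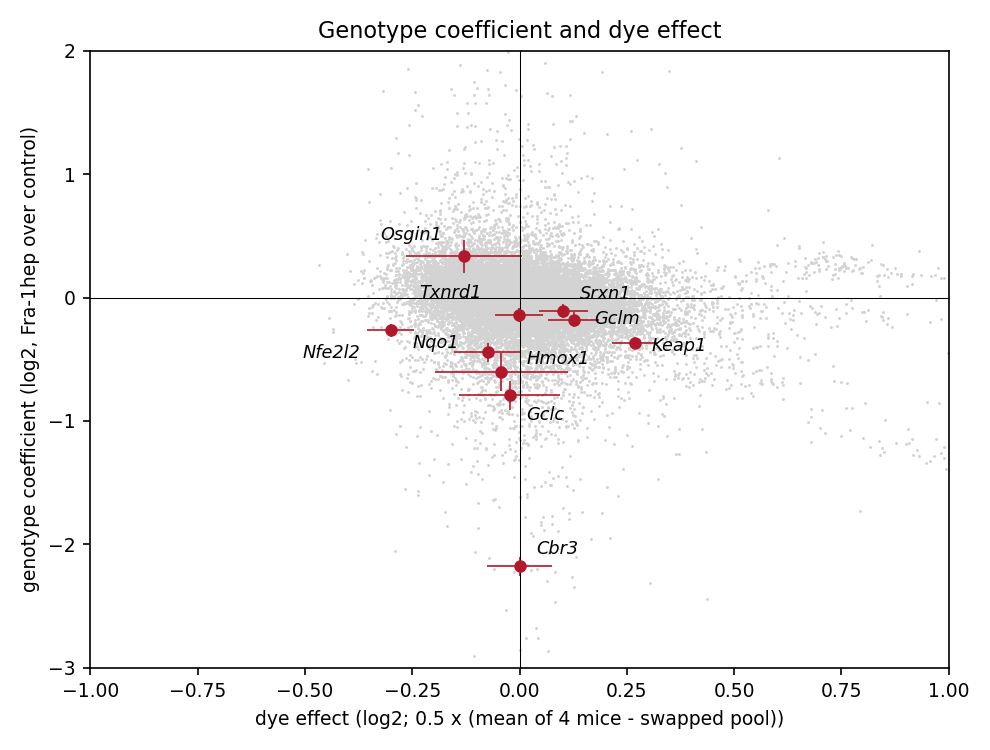
Genotype coefficient (y axis) against dye effect (x axis), both log2, for 21494 features in grey (70 lie outside the axes) and the 10 genes in red with SE bars. Nfe2l2 at a dye effect of -0.30 and Keap1 at 0.27 are the members farthest from 0 on the x axis, and Cbr3 lies lowest.

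Gclc and Gclm encode the catalytic and the modifier subunit of glutamate-cysteine ligase, the first enzyme of glutathione synthesis. Gclc gave -1.21, -0.51, -0.78 and -0.75 in mice 1 to 4, and the swapped pool gave -0.77. All were below 0, with mouse 1 lowest and mouse 2 highest, and Gclc fell by 0.79 (SE 0.12, adjusted p = 0.00421), or 1.73-fold. Gclm gave -0.12, 0.07, -0.05 and -0.12 in the mice, and the pool gave -0.31. Mouse 2 was above 0 and the others below, and Gclm, at -0.18 (SE 0.06), did not pass (adjusted p = 0.0671, unadjusted 95% interval -0.32 to -0.04). Without the swapped array Gclm was at -0.05. The difference between the subunits was not tested.

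Cbr3 encodes carbonyl reductase 3, which reduces carbonyl compounds with NADPH. Its normalized log2 intensity in the control channel was 10.39, 10.62, 10.59 and 10.57 on the arrays of mice 1 to 4, and 10.47 on the swapped array. In the Fra-1hep channel it was 8.40, 8.25, 8.41 and 8.40 in the mice, and 8.30 in the pool. The control readings repeat a single pool, so their spread is not that among control mice. The ratios were -1.99, -2.37, -2.18 and -2.17 in the mice, and the pool gave -2.18. Mice and pool were alike, and Cbr3 fell by 2.18 (SE 0.08, adjusted p = 1.74e-05), ranking 17 of 21494 features by p.

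Nqo1 encodes NAD(P)H quinone dehydrogenase 1, which reduces quinones and is a common readout of NRF2. It gave -0.48, -0.56, -0.33 and -0.71 in mice 1 to 4, and the swapped pool gave -0.37. All arrays were below 0, with mouse 4 lowest, and Nqo1 fell by 0.44 (SE 0.08, adjusted p = 0.00748), or 1.36-fold.

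Hmox1 encodes haem oxygenase 1, which opens haem to biliverdin, iron and carbon monoxide. Its brighter probe gave -1.05, -0.15, -0.51 and -0.88 in mice 1 to 4, and the swapped pool gave -0.56. Mice 1 and 4 were low and mouse 2 near its control, the widest spread of the 10 genes (SD 0.40, n = 4), and Hmox1 fell by 0.60 (SE 0.15, adjusted p = 0.0287), or 1.52-fold. The other probe gave -0.44, -0.11, -0.30 and -0.64 in the mice, and the pool gave -0.13. Its sign was the same throughout, but at -0.25 (SE 0.09) it did not pass when all kept probes were fitted (limma adjusted p = 0.0955, where 14.4% of probes were called lower). The call at the brighter probe ended without mouse 4 (adjusted p = 0.0614) and with the control pool's variation (adjusted p = 0.0912).

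Macrophages also make haem oxygenase 1, and some of their markers fell with it. Of 14 listed markers 13 were tested, of which 6 fell (Adgre1, C1qa, C1qb, C1qc, Cd5l and Slc11a1), 1 rose (Cd163) and 6 did not pass, with a median of -0.55. The list's median was -0.90, -0.10, -0.59 and -0.89 in mice 1 to 4, and the swapped pool gave -0.41. Mice 1 and 4 were again low and mouse 2 high. Mice 1 and 4 were also lowest in the medians of some other lists. These were -0.56, -0.13, -0.25 and -0.52 for endothelial markers, and -0.58, -0.16, -0.05 and -0.46 for genes that supply NADPH. Stellate markers differed, at -0.71, -0.78, -0.97 and -1.10. Adgre1, the gene of the macrophage surface protein F4/80, fell by 0.82 (SE 0.14, adjusted p = 0.00695), and Cd163, a scavenger receptor, rose by 0.29 (SE 0.08, adjusted p = 0.0325). Among the 6 that did not pass were Clec4f (0.07), Vsig4 (0.05) and Timd4 (0.13), Kupffer cell genes picked after their values were seen. These values do not stand for the other markers. Summed over the 13 markers, normalized intensity ran from 28924 to 65996 in the Fra-1hep channels and from 60063 to 74995 in the control channels, and 0 markers were below background in every Fra-1hep channel. Their part in the Hmox1 result was not tested, and in bulk RNA fewer cells of a type and less RNA per cell cannot be told apart. The rise ended without mouse 3 or mouse 4, and with the control pool's variation 3 markers fell and 0 rose.

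Txnrd1 encodes thioredoxin reductase 1, which returns thioredoxin to its reduced form. It gave -0.20, -0.06, -0.15 and -0.16 in mice 1 to 4, and the swapped pool gave -0.14. Every array was slightly below 0, and Txnrd1, at -0.14 (SE 0.06), did not pass (adjusted p = 0.104, unadjusted 95% interval -0.27 to -0.01). Srxn1 encodes sulfiredoxin, which repairs over-oxidised peroxiredoxins. It gave -0.10, 0.04, 0.06 and -0.03 in the mice, and the pool gave -0.21. The mice had both signs, and Srxn1, whose 300-base window holds both motifs, was at -0.11 (SE 0.06) and did not pass (adjusted p = 0.206, unadjusted 95% interval -0.25 to 0.03). Without the swapped array Srxn1 was at -0.0067.

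Osgin1, oxidative stress induced growth inhibitor 1, was the target with a coefficient above 0. It gave 0.49, 0.51, -0.08 and -0.10 in mice 1 to 4, and the swapped pool gave 0.46. Mice 1 and 2 and the pool were high, mice 3 and 4 were near control, and Osgin1, at 0.33 (SE 0.13), did not pass (adjusted p = 0.111, unadjusted 95% interval 0.02 to 0.65). Without the swapped array Osgin1 was at 0.20.

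**Figure D3:**
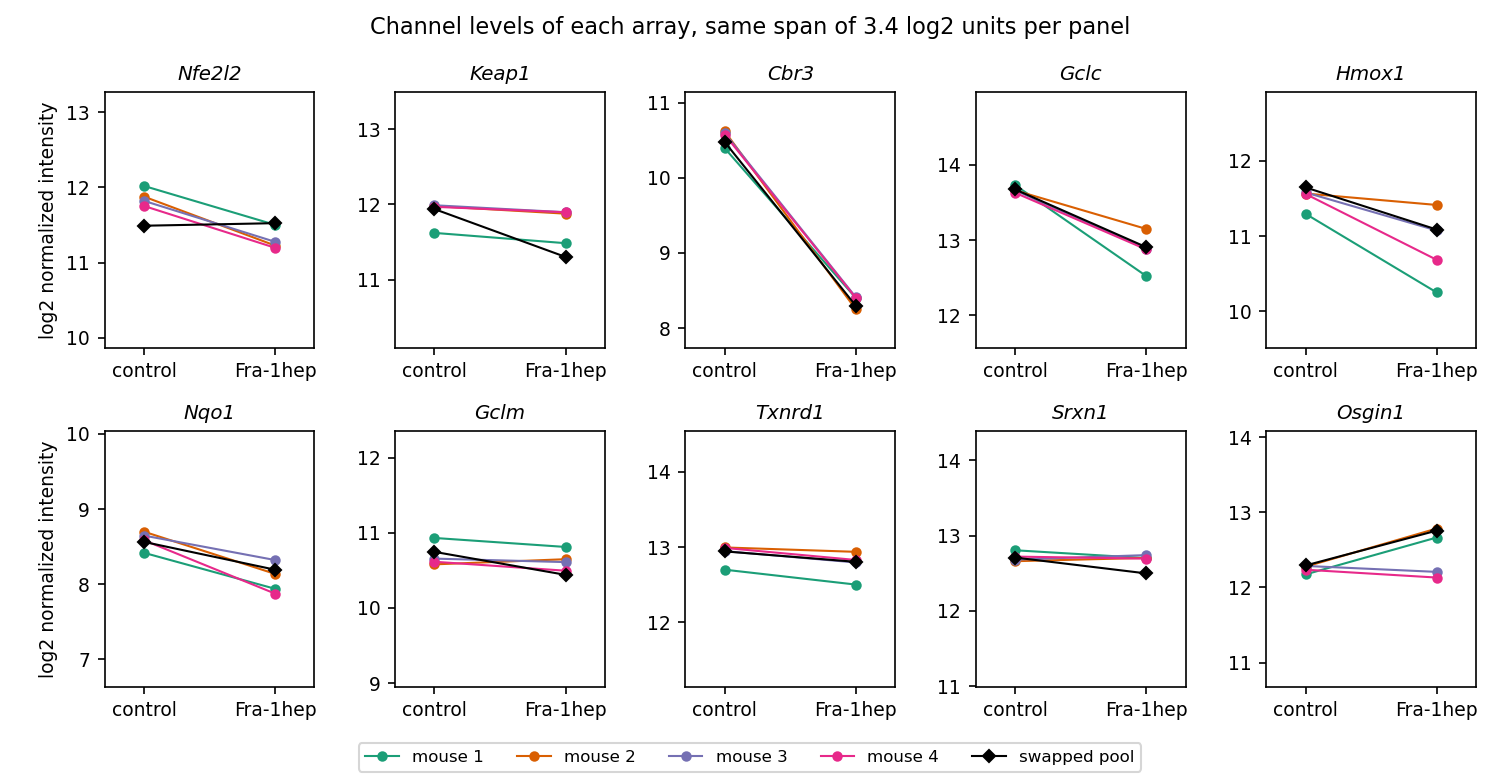
Normalized log2 intensity (y axis, same span in each panel) in the control and the Fra-1hep channel (x axis) for each of the 10 genes, 1 line per array. The Cbr3 lines fall together, from a mean of 10.53 to 8.35, and the Hmox1 lines fan out; levels of different genes are not comparable.

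Regulators and targets were then set side by side on each array. The median of the 8 targets was -0.34, -0.11, -0.24 and -0.43 in mice 1 to 4, and the swapped pool gave -0.34. The number of targets below 0 was 7, 5, 7 and 8 in the mice and 7 in the pool. The target median was thus below 0 in both dye orientations, whereas Nfe2l2 was low in the mice and Keap1 chiefly in the pool. Mouse 2 had the lowest Nfe2l2 ratio and the target median nearest 0.

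The partners, ligase genes and relatives of NRF2 had calls in both directions. Among all named genes 12% were called higher and 18.5% lower. Of 17 listed genes (small MAF, BACH, ligase and NRF2-family genes) 16 were tested, of which 4 rose, 3 fell and 9 did not pass, with a median of 0.02. Maff, the gene of a small MAF protein, gave -1.33, -0.70, -0.97 and -0.61 in mice 1 to 4, and the swapped pool gave -1.15. All arrays were low, and Maff fell by 1.02 (SE 0.13, adjusted p = 0.00212). Another small MAF gene, Mafg, fell by 0.29 (SE 0.06, adjusted p = 0.0151), while Mafk rose by 0.46 (SE 0.11, adjusted p = 0.0212). Nfe2, the blood-cell relative of Nfe2l2, rose by 0.89 (SE 0.13, adjusted p = 0.00445), and Nfe2l1, the relative that controls proteasome genes, fell by 0.24 (SE 0.07, adjusted p = 0.0448). Dpp3, whose product binds KEAP1, rose by 0.34 (SE 0.06, adjusted p = 0.00829). Dcaf11, of another ubiquitin ligase, was called higher at 0.17 (adjusted p = 0.049), with 0.06 over the mice and 0.28 in the pool. Cul3 (0.04) and Rbx1 (-0.00), subunits of KEAP1's ligase, and the repressor gene Bach1 (0.03) did not pass. With the control pool's variation 2 rose and 1 fell.

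Of 8 paralogs of the targets 1 rose, 0 fell and 7 did not pass, with a median of -0.00. Hmox2, the constitutive haem oxygenase, rose by 0.20 (SE 0.05, adjusted p = 0.034), a call that ended without mouse 2, 3 or 4. Cbr1, the nearest relative of Cbr3, gave -0.84, -0.38, 0.06 and -0.94 in mice 1 to 4, and the swapped pool gave -0.48. Mouse 3 was level with control, and Cbr1, at -0.50 (SE 0.18), did not pass (adjusted p = 0.0764).

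Of 14 other glutathione genes 12 were tested, of which 1 rose, 2 fell and 9 did not pass, with a median of 0.08. Gsr, glutathione reductase, was between -0.51 and -0.34 on all arrays and fell by 0.39 (SE 0.06, adjusted p = 0.00458). Gpx1, a glutathione peroxidase, was called lower at -0.49 (adjusted p = 0.00814), with -0.08 over the mice and -0.91 in the pool. Ggt6, of the gamma-glutamyltransferase family, rose by 0.42 (SE 0.07, adjusted p = 0.00685). Without mouse 1, 2 genes of this list rose, and without mouse 1 or the swapped array the median was 0.05.

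Of 13 thioredoxin and peroxiredoxin genes 2 rose, 2 fell and 9 did not pass, with a median of -0.08 that was -0.03 without the swapped array. Txn1, thioredoxin, was between -0.48 and -0.30 on all arrays and fell by 0.41 (SE 0.06, adjusted p = 0.00322). Prdx1, a peroxiredoxin, was called lower at -0.26 (adjusted p = 0.013), with -0.10 over the mice and -0.43 in the pool. The peroxiredoxin genes Prdx5 (0.60, SE 0.06) and Prdx4 (0.33, SE 0.05) rose.

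Of 6 genes that supply NADPH 1 fell, 0 rose and 5 did not pass, with a median of -0.22. Taldo1, transaldolase, fell by 0.23 (SE 0.06, adjusted p = 0.0377), a call that ended without mouse 1, 3 or 4 and with the control pool's variation. Without the swapped array 3 of the 6 fell, where 19% of all features were called lower, and the median was -0.38.

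Of 8 haem and iron genes 4 fell, 0 rose and 4 did not pass, with a median of -0.44 that was -0.23 without the swapped array. Blvrb, biliverdin reductase B, fell by 0.59 (SE 0.09, adjusted p = 0.00427), with all arrays below 0, and Slc40a1, the iron exporter ferroportin, fell by 0.59 (SE 0.15, adjusted p = 0.0275). The ferritin genes were called lower chiefly through the pool: Ftl1 was at -0.22 over the mice and -1.58 in the pool, and Fth1 at -0.01 and -0.77.

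Of 24 conjugation and export genes 23 were tested, of which 3 rose, 10 fell and 10 did not pass, with a median of -0.20. Aox1, aldehyde oxidase, fell by 0.62 (SE 0.05, adjusted p = 0.000526), as did Abcc3, an export pump for conjugates, by 0.96 (SE 0.13). Ugt2b35, a glucuronosyltransferase, fell by 0.53 (SE 0.05, adjusted p = 0.000997). The glutathione transferase genes Gstp1 (1.12, SE 0.22) and Gstm6 (0.49, SE 0.06) and the carboxylesterase gene Ces1g (0.36, SE 0.06) rose. Some transferase genes are close in sequence to others of their class, and cross-matching of probes was not checked, so their single values are uncertain. Without the swapped array 5 rose, where 3641 of 21494 features were called higher in place of 2402. Of 4 other antioxidant enzymes 2 fell and 0 rose: Sod3, extracellular superoxide dismutase, fell by 0.37 (SE 0.07, adjusted p = 0.00997), and catalase, Cat, was called lower at -0.29 with 0.01 over the mice and -0.59 in the pool. Without the swapped array 1 of these 4 fell and 1 rose.

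**Figure D4:**
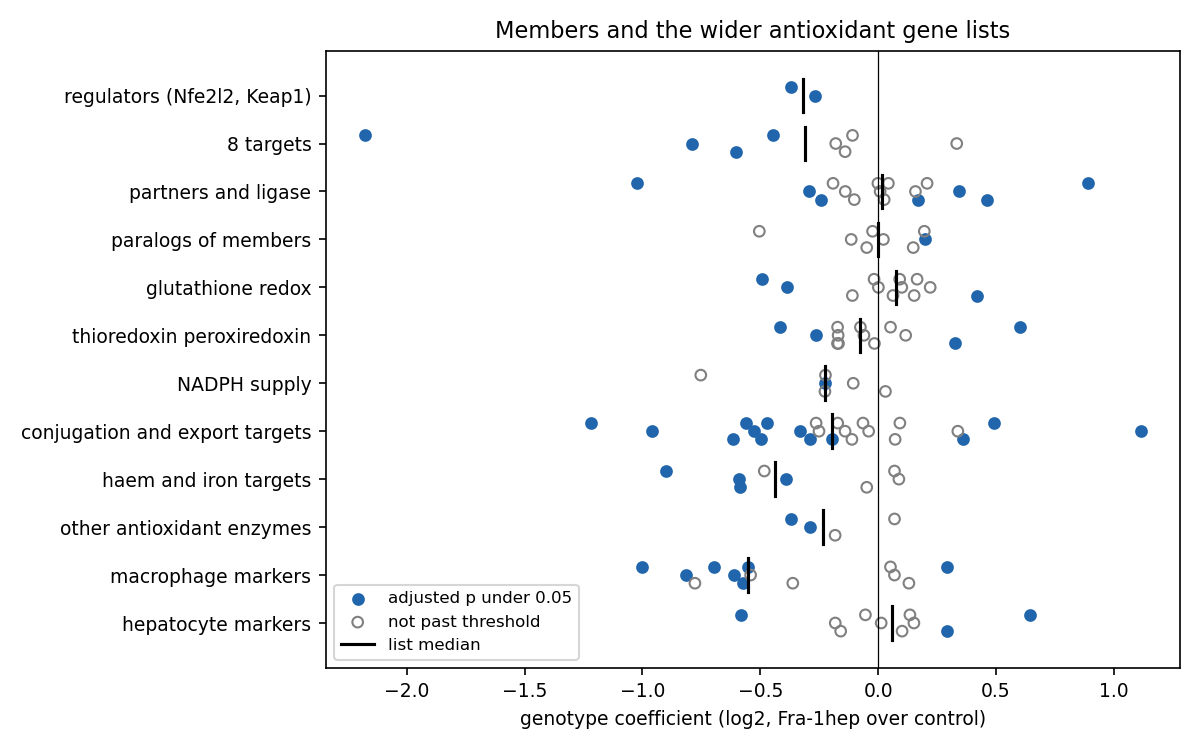
Genotype coefficient (x axis, log2) of each tested gene by gene list (y axis), with filled points past an adjusted p of 0.05, open points not past it, and black bars at list medians. The 8 targets have a median of -0.31, against 0.08 for other glutathione genes and -0.55 for macrophage markers.

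For each gene the closest of 13514 other named genes was taken by mean absolute difference in log2 ratio over the 5 arrays, which share the control pool. It was Fbxw9 for Nfe2l2 (0.0472), Ppp1cb for Keap1 (0.0162), Wls for Nqo1 (0.0541), Arl4a for Gclc (0.0584) and Tcf3 for Gclm (0.0195). It was Cd55 for Hmox1 (0.0533), Lrrk1 for Txnrd1 (0.0176), Elovl1 for Srxn1 (0.0156), Wfdc2 for Cbr3 (0.0975) and Mgst2 for Osgin1 (0.0987). Wfdc2 was between -2.23 and -2.11 on all arrays, beside -2.37 to -1.99 for Cbr3.

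Across channels and arrays 47.2% to 61.5% of spots were well above background, the highest share being the control channel of mouse 1. That array lay on a slide apart from the other 4, and without it all 10 genes kept their side of the threshold. All 10 hepatocyte markers, Alb among them, were above background, and 2 rose, 1 fell and 7 did not pass. Without the swapped array 5 of them rose, where 3641 of 21494 features were called higher in place of 2402. Among markers of other cells, 6 of 8 neutrophil genes rose, and 6 of 8 stellate, 4 of 8 endothelial, 3 of 7 lymphocyte, 3 of 4 erythroid and 0 of 5 cholangiocyte genes fell. With the control pool's variation the endothelial falls went from 4 to 1 and the erythroid falls from 3 to 0, and without mouse 4 there were 2 endothelial falls. Of 5 adipocyte genes only Cfd was kept, through the control channel alone: its normalized intensity was 819 to 1000 there, and in every Fra-1hep channel it was not well above background, at 51.1 to 105. Their part in the values above was not tested.

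**Figure D5:**
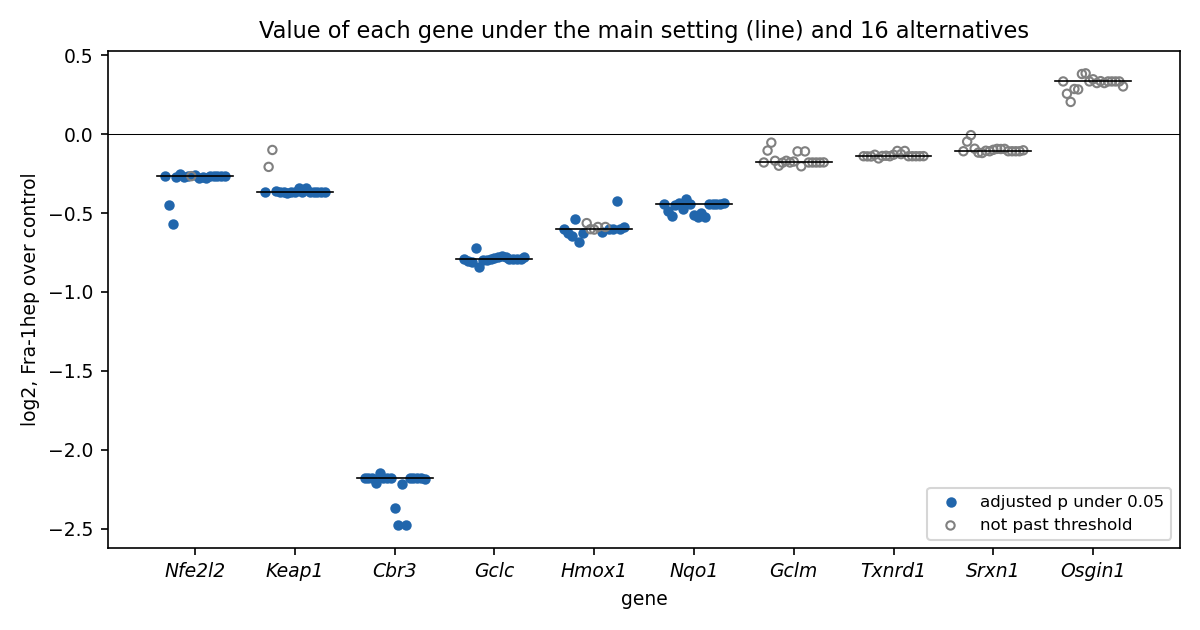
Log2 value (y axis) of each of the 10 genes (x axis) as reported (line) and under 16 alternative settings (points, filled where the adjusted p was under 0.05). Cbr3, Gclc and Nqo1 are filled throughout, Keap1 has 2 open points and Hmox1 has 5.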

How the data were processed

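Liver RNA was measured on 5 Agilent 2-colour arrays. Per the file headers, the authors extracted spot and background intensities with Agilent Feature Extraction 10.7.3.1 (10.7 per the submitters' processing notes). The deposited scanner files also hold processed intensities, flags, and the log10 of each spot's Cy5 signal over its Cy3 signal. The log2 ratios of the deposited series table had slopes of 1.00 (mice) and -1.00 (swapped array) on the scanner's ratios, so they run as Fra-1hep over control; their medians, -0.04 to 0.13, show no centring.

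Median signals were corrected by normexp (offset 50) and loess within arrays, with control and outlier spots at weight 0. Probes above background in a channel on 3 or more arrays were kept, and the brightest probe represented its gene. Of 55681 probes, 26056 were named through a RefSeq table of GRCm38.p6. limma 3.58.1 in R 4.3.3 fitted genotype and dye, with 3 residual and 4.02 prior degrees of freedom, and was tested on simulated data. Channel levels follow Aquantile scaling. Named were all members, partners and paralogs past the threshold, up to 4 genes of each other list with the smallest p, and those moving against their list; others, such as Cul3, Rbx1, Bach1, Cbr1, Clec4f, Vsig4, Timd4, Alb and the genes of the closing section, were chosen after their values were seen. Members and lists were chosen with earlier results of these data known. The number of arrays limits the precision.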

Additional observations from a re-analysis of the deposited data

Results flagged for a closer look

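The mice and the swapped pool differed, by the dye term of the limma fit, for Nfe2l2 (dye effect -0.30, adjusted p = 0.0319) and Keap1 (0.27, adjusted p = 0.0381). In size these effects exceeded those of 95.4% and 93.8% of all features.

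For Txnrd2, the mitochondrial thioredoxin reductase and a paralog of Txnrd1, mouse 1 (-0.17) lay apart from the other mice (-0.04, -0.04 and -0.02), with a gap of 0.83 of the range. In 35 such checks chance alone gives about 1 in 20.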

How the results depend on the processing

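The 10 genes were refitted under 16 alternatives and kept their direction in all of them. Several could not change it. The wider SE, both changes to the background filter and the fit of all kept probes left these coefficients as they were. So did averaging the kept probes, for genes with a single probe. For Hmox1, which has 2 probes, averaging gave -0.43 (limma adjusted p = 0.0421). The deposited table nearly repeats the processed signals. Cbr3, Gclc and Nqo1 passed in all 16, and Gclm, Txnrd1, Srxn1 and Osgin1 in 0. Cbr3 ranged from -2.48 to -2.15, Gclc from -0.84 to -0.72 and Nqo1 from -0.53 to -0.41. With a normexp offset of 0, Cbr3 was at -2.37, Gclc at -0.78 and Nqo1 at -0.51. Keap1 did not pass without the swapped array (-0.10) or without a dye term (-0.21). Nfe2l2 did not pass with the control pool's variation (-0.27). Hmox1 did not pass with that variation (-0.60), a normexp offset of 0 (-0.61), processed signals (-0.59) or the deposited table (-0.59), and ranged from -0.68 to -0.54 as each mouse was left out. Over all features that variation left 2846 calls in place of 5717, and median centring made 32.4% of calls higher in place of 42.0%. With a further A at the end of the response element, 1 gene in place of 4 had a match. Apart from the wider SE and the longer motif, the cause was not tested. Each ratio already sets a Fra-1hep sample against the control pool on its own array. No paired analysis was possible because the controls were a single pool, with no separate control samples to match to the mice.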

Other observations

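The nearest named genes past the filter beside Cbr3 on chromosome 16, 3 on each side, had changes between -0.74 and 0.35, against -2.18 for Cbr3. On one side Setd4 fell by 0.62 (SE 0.19, adjusted p = 0.048), Runx1 fell by 0.28 (SE 0.07, adjusted p = 0.0269), and Cbr1, at -0.50, did not pass. On the other side Morc3 fell by 0.74 (SE 0.06, adjusted p = 0.000468), Chaf1b fell by 0.47 (SE 0.10, adjusted p = 0.0162), and Dop1b rose by 0.35 (SE 0.09, adjusted p = 0.0332). All p are limma's over all features. Around Nfe2l2, itself at -0.27, such neighbours lay between -0.41 (Mtx2) and -0.01 (Ttc30a2).

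Me1, malic enzyme, which makes NADPH for fat synthesis, gave -2.27, -0.44, 0.18 and -0.96 in mice 1 to 4, and the swapped pool gave -0.63. It spread from far below control in mouse 1 to above it in mouse 3, and did not pass (-0.75, SE 0.39, limma adjusted p = 0.193). G6pdx, of the pentose phosphate pathway, gave -0.98, -0.06, 0.02 and -0.63 in the mice and -0.04 in the pool, and did not pass (limma adjusted p = 0.397). Mice 1 and 4 were the lowest for both genes. Elovl5, a fatty acid elongase beside Gclc, was at -0.99 (SE 0.40) and did not pass (limma adjusted p = 0.111).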
